A study of Mus musculus with 14 samples.

Results

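The genes described here are the 10 members of the insulin-like growth factor (IGF) axis and of the Igf2bp family that were chosen by name, out of 46517 gene rows. They are the ligand gene Igf1, its receptor gene Igf1r, the binding protein genes Igfbp2, Igfbp3, Igfbp4, Igfbp5 and Igfbp7, and the RNA-binding protein genes Igf2bp1, Igf2bp2 and Igf2bp3. The list was drawn up with earlier results of RPM against RPR2 from these libraries known, so the members' differences between the models are a description and carry no test. RNA-seq values came from 14 untreated small cell lung cancers (SCLC) of mice, macro-dissected from the lung. The 11 RPM tumours (Rb1 fl/fl, Trp53 fl/fl, with a Cre-activated Myc T58A allele) comprised 9 LSL/LSL and 2 LSL/+ tumours for Myc (replicates 2 and 4), and the 3 RPR2 tumours were Rb1 fl/fl, Trp53 fl/fl and p130 fl/fl (Rbl2). Both models thus carry the floxed Rb1 and Trp53 alleles, and tumours of both were started by adenoviral Cre driven by Cgrp, a promoter of neuroendocrine cells. RPM replicates 6 and 7 share a number in their titles, as do replicates 10 and 11, and whether such tumours came from the same mouse is not given in the sources used here. The p-values below therefore measure the spread between tumours, some of which may share a host.

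IGF-1 is a secreted growth factor that binds IGF1R, a receptor tyrosine kinase that signals to AKT and MAP kinases. IGF-binding proteins hold IGFs outside the cell and set how much reaches the receptor, and IGFBP7 differs from the others in its weak affinity for IGFs. The Igf2bp proteins are unrelated to them in sequence and bind messenger RNAs, among them those of Igf2 and Myc. They are known mainly from embryonic tissue and from tumours that express them again.

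RPR2 replicate 3 stood apart from the other libraries. A level of a marker list below is the mean of log2(FPKM + 1), where FPKM is the number of fragments per gene scaled by transcript length and library size, over its genes. The level of 12 neuroendocrine markers was 3.90 to 6.46 in RPM, against 7.94, 8.11 and 1.47 in RPR2 replicates 1, 2 and 3. That of 9 alveolar type 2 markers was 1.70 to 5.42 in RPM, against 6.22, 6.64 and 10.03 in RPR2. RPR2 replicate 3 thus went against its SCLC label by its markers, and differences are given with and without it. The library codes in the labels begin with other numbers in RPR2 than in RPM, so whatever step these codes stand for cannot be told apart from the model.

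Promoter windows are shown for Igfbp2, the member that was higher in RPM, for Igf2bp2, the member that was lower in RPM in every library, and for Igf2bp3, which was near 0 in nearly all libraries. The windows are RefSeq sequences of GRCm38.p6, the assembly of mm10, from 250 bases before to 50 bases past an annotated start, written on the gene's strand. Capitals mark the letters CACGTG, the E-box that Myc and Max are known to bind, which reads the same on both strands.
Igfbp2, chr1:72824230-72824529, plus strand: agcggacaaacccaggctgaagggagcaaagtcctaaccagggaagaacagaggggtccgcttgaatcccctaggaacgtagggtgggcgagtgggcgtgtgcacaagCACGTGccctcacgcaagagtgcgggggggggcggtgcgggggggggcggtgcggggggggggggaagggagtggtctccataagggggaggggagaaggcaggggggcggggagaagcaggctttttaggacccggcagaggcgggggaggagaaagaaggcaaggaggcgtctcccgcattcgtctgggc
Igf2bp2, chr16:22163250-22163549, minus strand: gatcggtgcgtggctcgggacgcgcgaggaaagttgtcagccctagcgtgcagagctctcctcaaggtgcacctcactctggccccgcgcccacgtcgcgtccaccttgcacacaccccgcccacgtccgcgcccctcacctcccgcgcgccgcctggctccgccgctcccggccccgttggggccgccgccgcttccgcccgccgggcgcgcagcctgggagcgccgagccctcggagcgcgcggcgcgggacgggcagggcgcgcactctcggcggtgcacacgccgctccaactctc
Igf2bp3, chr6:49214905-49215204, minus strand: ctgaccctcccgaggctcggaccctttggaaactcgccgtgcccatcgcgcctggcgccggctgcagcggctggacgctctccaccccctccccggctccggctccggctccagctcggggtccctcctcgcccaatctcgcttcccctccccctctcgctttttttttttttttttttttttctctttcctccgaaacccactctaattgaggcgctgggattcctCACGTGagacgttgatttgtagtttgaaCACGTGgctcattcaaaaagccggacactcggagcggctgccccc

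Windows were found for 9 of the 10 members, 10 windows in all since Igfbp2 has 2, and the letters CACGTG occurred in those of 2 members. In Igfbp2 they begin 142 bases before the start, and in Igf2bp3 they begin 23 bases before it and again just past it. These distances are to the RefSeq start of each window, which in Igfbp2 lies before the GENCODE start at 72824503. Of all 32851 windows in the table, 7.15% hold CACGTG, and none of the matches overlapped GGGCGG or TATAAA, which were searched on both strands. GGGCGG, the letters of a GC box, occurred in the windows of Igfbp2 (3 matches), Igfbp7 (4), Igf1r (2) and Igf2bp2 (2), against 35.7% of all windows. TATAAA occurred in that of Igfbp4, against 13.6% of all windows. The Igf2bp2 window holds 76.7% G and C, more than 97.3% of all windows.

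Igfbp2 and Igfbp5 are direct neighbours on chromosome 1 (GRCm38, GENCODE annotation). Igfbp2 (ENSMUSG00000039323) lies at chr1:72824503-72852474 on the plus strand and Igfbp5 (ENSMUSG00000026185) at chr1:72857932-72874884 on the minus strand. Their 3' ends face each other across 5457 bases that hold no other protein-coding gene. Igf2bp2 (ENSMUSG00000033581) lies at chr16:22059009-22163299 on the minus strand and Igf1r (ENSMUSG00000005533) at chr7:67952827-68233668 on the plus strand. Igf1 (ENSMUSG00000020053) lies at chr10:87858265-87937042, Igfbp3 (ENSMUSG00000020427) at chr11:7206086-7213923, Igfbp4 (ENSMUSG00000017493) at chr11:99041244-99054392 and Igfbp7 (ENSMUSG00000036256) at chr5:77349240-77408041. Igf2bp1 (ENSMUSG00000013415) lies at chr11:95957163-96005940 and Igf2bp3 (ENSMUSG00000029814) at chr6:49085223-49214957. The table gives a value per gene and does not tell transcripts apart.

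In RPM the binding proteins were the most abundant members and the Igf2bp genes the least. Median FPKM, a level per length of transcript, was 175 for Igfbp5, 160 for Igfbp7, 133 for Igfbp2, 65.2 for Igfbp3 and 16.3 for Igfbp4. It was 8.20 for Igf1, 2.90 for Igf1r, 0.37 for Igf2bp2, 0.05 for Igf2bp1 and 0.01 for Igf2bp3. The ranges of neighbours in this order overlapped at every step, although Igf1 lay above Igf1r and Igf1r above Igf2bp2 within each of the 11 tumours. In RPR2 Igfbp5 and Igfbp7 also had the highest medians (249 and 129 FPKM), and Igfbp3 and Igfbp4 followed (65.4 and 17.9). The median of Igf2bp2 came next at 10.9, ahead of that of Igfbp2 at 7.99. The ranges of Igf2bp2 and Igfbp2 overlapped there, and Igf2bp2 lay above Igfbp2 within only 1 of the 3 RPR2 tumours.

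**Figure D1:**
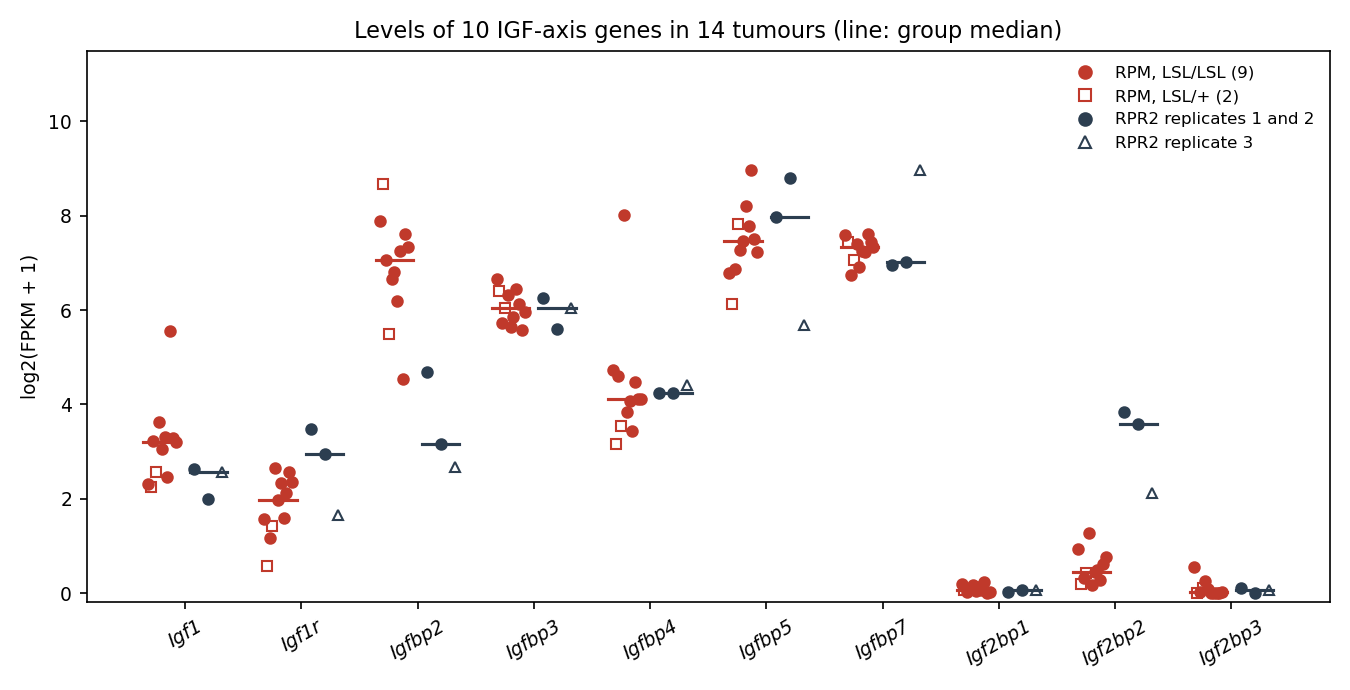
Level of each member in every tumour as log2(FPKM + 1), with RPM at the left and RPR2 at the right of each gene. Points are tumours, open squares are LSL/+ RPM tumours, the open triangle is RPR2 replicate 3 and lines are group medians. Igf2bp2 is the member whose models do not overlap, and in Igfbp2 a single RPM tumour, replicate 9 at 22.4 FPKM, lies below the highest RPR2 tumour at 24.6 FPKM.

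The fit covered 15719 genes that reached 1 FPKM in 3 or more libraries. Of the 10 members 8 were among them, and Igf2bp1 and Igf2bp3 were not. Igf2bp2 reached 1 FPKM in its 3 RPR2 libraries and, within RPM, only in replicate 5 (1.41 FPKM). Its entry thus rested mainly on the group where it was high. By limma with Benjamini-Hochberg adjustment at 0.05, 1 of the 8, Igfbp2, was called higher in RPM, where 18.4% of all genes were. A further 1, Igf2bp2, was called lower, where 22.8% of all genes were. All RPM tumours lay below all RPR2 tumours for 1 of the 8, Igf2bp2, against 13.6% of genes, and above them for 0, against 11.1% of genes. Without RPR2 replicate 3 the calls were 1 higher (Igfbp2, background 16.4%) and 2 lower (Igf2bp2 and Igf1r, background 27.4%). Igf2bp2 and Igf1r then lay below both RPR2 tumours in all RPM tumours (background 28.6%) and 0 lay above (background 16.5%). Since the choice of members had used this contrast, nothing is read from these counts.

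Igfbp2 was the member with the largest difference upward in RPM. It stood at 22.4 to 407 FPKM in RPM with a median of 133, against 24.6, 7.99 and 5.35 in RPR2 replicates 1, 2 and 3. Of the 11 RPM tumours, 10 lay above every RPR2 tumour, and replicate 9 alone lay below RPR2 replicate 1. The mean was 149 ± 107 FPKM in RPM (SD, n = 11) and 12.7 ± 10.4 in RPR2 (SD, n = 3), 11.7 times as high in RPM. The difference of log2(FPKM + 1), which is the scale of every log2 difference below, was 3.36 ± 0.662 (SE) and 2.94 without RPR2 replicate 3. Over 22 alternatives it stayed between 2.94 and 3.95. In the mouse lung Igfbp2 is known from alveolar type 1 cells. Their 9 markers stood at 1.47 to 4.17 in RPM, against 4.42, 4.71 and 5.13 in RPR2. Of the 9 markers, 5 were called lower in RPM (background 22.8%), and 3 without RPR2 replicate 3 (background 27.4%). Across the RPM tumours Igfbp2 and these markers had r = -0.07 and rho = 0.03 (permutation p = 0.842 and 0.946, adjusted p = 0.955 and 0.990, n = 11). The 11 pericyte and smooth muscle markers stood at 3.13 to 3.84 in RPM, against 2.22, 2.10 and 2.05 in RPR2. Of the 11 markers, 8 were called higher in RPM (background 18.4%), and 6 without RPR2 replicate 3 (background 16.4%). Across the RPM tumours Igfbp2 and these markers had r = -0.50 and rho = -0.45 (permutation p = 0.120 and 0.174, adjusted p = 0.367 and 0.449, n = 11). Of the 13 fibroblast markers 6 were called higher (background 18.4%) and 2 lower (background 22.8%) in RPM. Both counts were the same without RPR2 replicate 3 (background 16.4% and 27.4%). Igfbp2 had r = 0.19 and rho = -0.03 with the fibroblast markers in RPM (permutation p = 0.571 and 0.946, adjusted p = 0.902 and 0.990, n = 11). The part of any of these cell types in the Igfbp2 difference between the models was not tested. In bulk tissue, fewer cells of a type and less RNA per cell cannot be told apart.

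Igfbp5, which binds IGFs in the extracellular matrix, had no such difference between the models. It stood at 69.0 to 500.0 FPKM in RPM with a median of 175, against 249, 445 and 50.3 in RPR2. RPR2 replicate 3 lay below every RPM tumour and RPR2 replicate 2 near the top of the RPM range. The log2 difference was -0.03 ± 0.563 (SE). It was -0.93 without RPR2 replicate 3, 0.63 without RPR2 replicate 2 and 0.095 after median-of-ratios scaling, so its direction depended on the libraries and the scaling.

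Within RPM, Igfbp2 was low where its neighbour Igfbp5 was high. RPM replicate 9 had the lowest Igfbp2 and the highest Igfbp5 (22.4 and 500.0 FPKM), and RPM replicate 2, an LSL/+ tumour, had the highest Igfbp2 and the lowest Igfbp5 (407 and 69.0 FPKM). These tumours also had the lowest and the highest sum of FPKM over all genes in RPM (599119 and 939971). Among 21 pairs of the 7 members with a mean of at least 1 FPKM in RPM, this pair had the strongest relation. Pearson's r was -0.88 (permutation p = 0.00049, adjusted p = 0.0103) and Spearman's rho -0.79 (permutation p = 0.00562, adjusted p = 0.118, n = 11), so the relation passed by r and not by rho. The pairs were chosen after the data were seen, so the p-values of this paragraph are a description and not a planned test. Without the 2 tumours farthest from the median Igfbp5 level, r was -0.63. The adjusted permutation p of r was 0.0517, 0.0741 and 0.115 without RPM replicate 1, 2 or 9, with r of -0.87, -0.83 and -0.79. It was 0.0817 after TPM scaling (r = -0.78) and 0.0521 with 1 tumour per title number (r = -0.88, n = 9). RPR2 replicate 3 was low in both genes. No other pair passed the adjustment. Igf1 with Igfbp2 (r = -0.73) and Igf1 with Igfbp5 (r = 0.71) had an adjusted permutation p of 0.144 each, and r was -0.11 and 0.04 without the 2 farthest tumours, RPM replicate 9 among them.

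**Figure D2:**
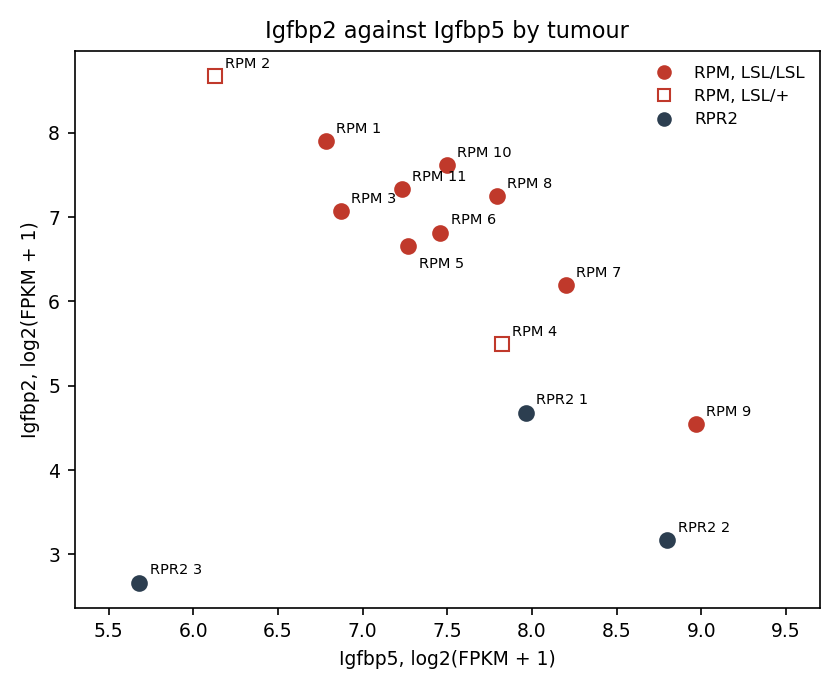
Igfbp2 against Igfbp5, both as log2(FPKM + 1), in the 11 RPM tumours (red, open squares LSL/+) and 3 RPR2 tumours (dark). RPM tumours run from RPM 2 at the upper left to RPM 9 at the lower right, and RPR2 3 lies apart at the lower left.

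Igfbp3, the main carrier of IGFs in blood, differed between the models by less than its spread. It stood at 46.8 to 100.02 FPKM in RPM with a median of 65.2, against 75.7, 47.3 and 65.4 in RPR2. All 3 RPR2 values lay within the RPM range, and the log2 difference was 0.10 ± 0.224 (SE). It was 0.14 without RPR2 replicate 3 and ran from -0.10 to 0.25 over 22 alternatives.

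Igfbp4, which inhibits IGF action until it is cut by the protease PAPP-A, differed between the models by less than its spread, and a single RPM tumour stood far above the others. It stood at 7.91 to 257 FPKM in RPM with a median of 16.3, against 17.9, 17.9 and 20.3 in RPR2. RPM replicate 5 held the value of 257, and the next highest RPM tumour, replicate 1, had 25.6. Without replicate 5 the RPM mean was 16.005 ± 5.87 FPKM (SD, n = 10), and with it 37.9 ± 72.8 (SD, n = 11), against 18.7 ± 1.37 in RPR2 (SD, n = 3). The log2 difference was 0.07 ± 0.700 (SE), 0.13 without RPR2 replicate 3 and -0.29 to 0.30 over 22 alternatives. RPM replicate 5 also had the lowest neuroendocrine marker level of RPM (3.90) and the highest fibroblast, endothelial and club and ciliated cell levels (4.41, 3.48 and 4.603). The part of those cells in its Igfbp4 level was not tested.

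Igfbp7, which is known from blood vessel walls, was the least variable member within RPM. It stood at 107 to 194 FPKM there with a median of 160, a coefficient of variation of 17.9%, against 123.6, 128.6 and 497.5 in RPR2. RPR2 replicate 3 had the highest value of all libraries, and RPR2 replicates 1 and 2 lay within the RPM range. The log2 difference was -0.37 ± 0.320 (SE) with all libraries and 0.29 without RPR2 replicate 3, so its direction turned with that library.

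Igf1 was somewhat higher in RPM, with overlap. It stood at 3.73 to 46.0 FPKM in RPM with a median of 8.20, against 5.22, 3.01 and 4.96 in RPR2. Of the RPM tumours 7 lay above every RPR2 tumour, and replicate 9, at 46.0, lay far above the next, replicate 5 at 11.4. Without replicate 9 the RPM mean was 7.002 ± 2.57 FPKM (SD, n = 10), against 4.40 ± 1.21 in RPR2 (SD, n = 3). The log2 difference was 0.76 ± 0.509 (SE), 0.85 without RPR2 replicate 3, and 0.52 to 1.08 over 22 alternatives. Macrophages and fibroblasts are known sources of Igf1 in the lung. In RPM replicate 9 the level of 14 macrophage markers was 3.56 (RPM range 2.30 to 3.69) and that of 13 fibroblast markers 3.53 (RPM range 2.66 to 4.41), and the part of these cells in its Igf1 level was not tested.

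Igf1r was lower in RPM than in RPR2 replicates 1 and 2. It stood at 0.48 to 5.28 FPKM in RPM with a median of 2.90, against 10.2, 6.69 and 2.14 in RPR2. RPR2 replicate 3 lay within the RPM range, and every RPM tumour was below the other RPR2 tumours. The log2 difference was -0.85 ± 0.431 (SE) with all libraries and -1.37 without RPR2 replicate 3. It kept its direction in all 21 alternatives, from -1.37 to -0.45, where the smallest was that without RPR2 replicate 1. Without RPR2 replicate 3, 6 of 12 neuroendocrine markers were called lower in RPM (background 27.4%) and 0 higher (background 16.4%). Their median log2 difference was -1.51. With all libraries 1 was called lower (background 22.8%) and 1 higher (background 18.4%), and the median of these markers was 0.254. Their part in the difference was not tested, and across the RPM tumours Igf1r had r = -0.25 and rho = -0.05 with them (permutation p = 0.456 and 0.903, adjusted p = 0.868 and 0.990, n = 11).

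Igf2bp2, which is also known from adult tissues, was the member with the largest difference downward in RPM. It stood at 0.13 to 1.41 FPKM in RPM with a median of 0.37, against 13.3, 10.9 and 3.38 in RPR2. Every RPM tumour lay below every RPR2 tumour, and RPR2 replicate 3 was the lowest of its group. The mean in RPM was 0.0540 of that in RPR2 (0.494 ± 0.387, SD, n = 11, against 9.21 ± 5.19, SD, n = 3). The log2 difference was -2.64 ± 0.311 (SE) and -3.17 without RPR2 replicate 3. It was -3.99 with a pseudocount of 0.1 in place of 1, since a pseudocount of 1 shrinks differences of low genes. Alveolar type 1 and type 2 markers differed between the models in the same direction. Of these, 5 of 9 and 9 of 9 were called lower in RPM (background 22.8%), and 3 and 5 without RPR2 replicate 3 (background 27.4%). Neuroendocrine markers were also lower in RPM without that library, and the part of such cells was not tested. Of the RPR2 tumours, replicate 3 had the highest alveolar type 1 and type 2 levels (5.13 and 10.03). It also had the lowest neuroendocrine level (1.47) and the lowest Igf2bp2.

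Igf2bp1 and Igf2bp3, the family members known mainly from the embryo, were near 0 in both models. Igf2bp1 stood at 0 to 0.18 FPKM in RPM with a median of 0.05, against 0.02, 0.05 and 0.04 in RPR2. Igf2bp3 stood at 0 to 0.46 in RPM with a median of 0.01, against 0.08, 0 and 0.04 in RPR2, and RPM replicate 1 had the 0.46. Both groups overlapped for both genes. From the size of single-read steps, the libraries held about 17.35 to 19.85 M reads in RPM and 21.25 to 22.8 M reads in RPR2. At these depths 3 reads on a transcript of 2 kb equal 0.0756 to 0.0865 FPKM in RPM and 0.0658 to 0.0706 in RPR2, and the medians of Igf2bp1 and Igf2bp3 lay below this in both models. The highest RPM values, 0.18 for Igf2bp1 and 0.46 for Igf2bp3, lay above it. On a transcript of 2 kb, values below this level stand for fewer than 3 reads, too few to judge a difference between the models. The level was set for 2 kb and not for the length of these genes' transcripts, so their own read numbers were not estimated. These limits cover counting error only.

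Members varied within RPM by very different amounts. The highest RPM tumour was 1.82 times the lowest for Igfbp7, 2.14 times for Igfbp3 and 7.25 times for Igfbp5. For Igf1r the extremes were 5.28 and 0.48 FPKM. The ratio was 12.3 times for Igf1, 18.2 times for Igfbp2 and 32.5 times for Igfbp4. Of these 7 members, RPM replicate 2 was lowest for Igf1, Igf1r, Igfbp4 and Igfbp5, and RPM replicate 9 was highest for Igf1, Igfbp5 and Igfbp7. Both tumours were also extreme over all genes. The sum of FPKM was the highest of RPM in replicate 2 (939971) and the lowest in replicate 9 (599119). Replicate 2 also had the fewest genes at 1 FPKM or more (12994). The part of such library-wide differences in the members' levels was not tested.

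**Figure D3:**
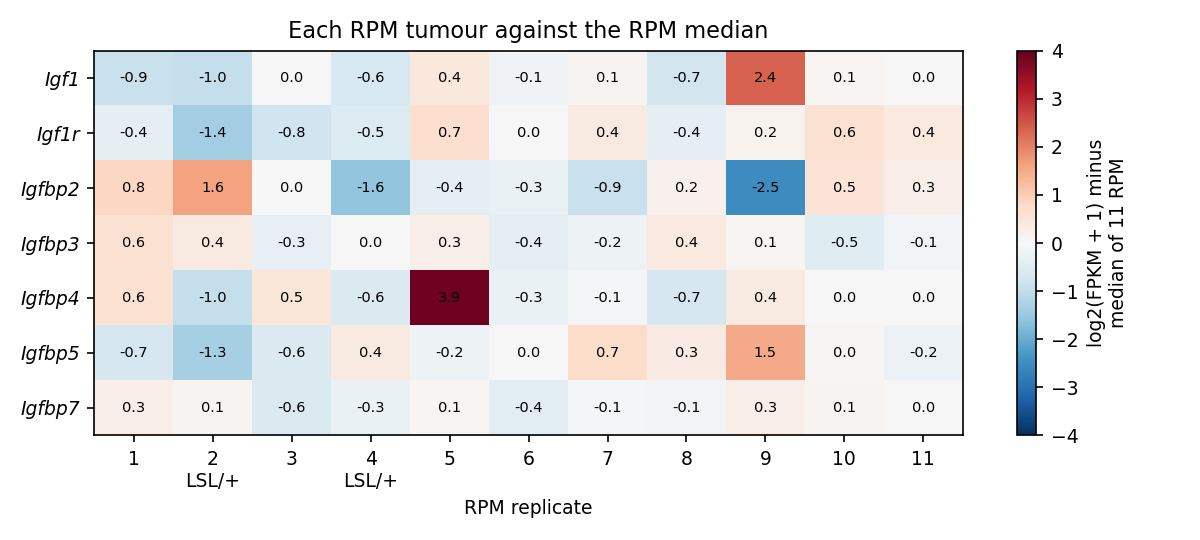
Deviation of each RPM tumour from the median of the 11, in log2(FPKM + 1), for the 7 members with a mean of at least 1 FPKM in RPM. Columns are replicates and colours run from lower (blue) to higher (red). Igfbp4 stands out in replicate 5, and in replicate 9 Igf1 is high and Igfbp2 low.

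The number of Myc T58A alleles, a contrast other than the one behind the choice of members, was tested within RPM. Of the 7 members that entered this fit of 14862 genes, 0 were called in either direction by limma with Benjamini-Hochberg adjustment, and 1, Igf1r, had an unadjusted p under 0.05. Over all genes 0 were called higher in LSL/LSL tumours (0%) and 1 lower (0.00673%), Pard6a, which is named after its values were seen, and 2569 had an unadjusted p under 0.05. Igf1r stood at 1.26 to 5.28 FPKM in LSL/LSL tumours with a median of 3.33, against 0.48 and 1.69 in LSL/+ tumours. Its groups overlapped, and the log2 difference was 1.04 ± 0.380 (SE, limma adjusted p = 0.262). Igf1 stood at 3.98 to 46.0 in LSL/LSL tumours with a median of 8.36, against 3.73 and 4.93 in LSL/+ tumours (0.93 ± 0.608, SE, limma adjusted p = 0.404). Igfbp4 stood at 9.80 to 257 in LSL/LSL tumours with a median of 16.4, against 7.91 and 10.6 in LSL/+ tumours (1.25 ± 0.861, SE, limma adjusted p = 0.427). The limma adjusted p of the 5 binding proteins ran from 0.427 to 0.961, and the groups overlapped for each of the 7 members. Igfbp2 stood at 22.4 to 237 FPKM in LSL/LSL tumours, between the LSL/+ tumours at 407 and 44.0 except for replicate 9. With only 2 LSL/+ tumours, these p-values do not show that the members are alike.

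Whether members moved with markers of other cells was tested across the 11 RPM tumours for 7 members and 7 marker lists. Of 49 relations 0 passed Benjamini-Hochberg adjustment of permutation p-values (100000 resamples) by r or by rho, while 12 had an unadjusted p under 0.05 by r and 8 by rho. Igfbp7 had r = 0.78 and rho = 0.67 with the 13 endothelial markers (permutation p = 0.00428 and 0.0287, adjusted p = 0.136 and 0.192, n = 11), and r = 0.77 without the 2 farthest tumours. Igf1r had r = 0.74 and rho = 0.82 with alveolar type 2 markers (permutation p = 0.00970 and 0.00346, adjusted p = 0.136 and 0.170, n = 11), and r = 0.69 without the 2 farthest tumours. Igfbp5 had r = 0.61 and rho = 0.73 with the 11 pericyte and smooth muscle markers (permutation p = 0.0430 and 0.0147, adjusted p = 0.176 and 0.192, n = 11), and r = 0.52 without the 2 farthest tumours. Igfbp4 had r = -0.85 and rho = -0.455 with neuroendocrine markers (permutation p = 0.00967 and 0.163, adjusted p = 0.136 and 0.447, n = 11), and r = -0.10 without the 2 farthest tumours, so that relation rests on them.

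TPM scaling, under which all libraries sum to an equal value, moved 6 of the 49 relations past the threshold by both measures. They were Igfbp7 with endothelial (r = 0.87), alveolar type 2 (r = 0.82), alveolar type 1 (r = 0.78) and macrophage markers (r = 0.77), Igf1r with endothelial markers (r = 0.79) and Igfbp5 with pericyte and smooth muscle markers (r = 0.82). Their permutation p-values adjusted over the 49 ran from 0.00343 to 0.0376 by r and from 0.0154 to 0.0377 by rho (n = 11), and their r was 0.64 to 0.84 without the 2 farthest tumours. TPM scaling divides member and markers alike by the library's sum of FPKM, which was 599119 to 939971 in RPM. After median-of-ratios scaling the same 6 had r of only 0.40 to 0.67. Their adjusted permutation p was then 0.342 to 0.678 by r and 0.445 to 0.722 by rho (n = 11). Igf1 had r = 0.44 with macrophage and 0.15 with fibroblast markers (permutation p = 0.173 and 0.649, adjusted p = 0.433 and 0.902, n = 11) and rho of 0.36 and 0.46 (adjusted permutation p = 0.555 and 0.447). Each list had all of its genes above 0.1 FPKM in at least 1 library. Between the models, the endothelial level was 2.36 to 3.48 in RPM, against 3.79, 3.74 and 2.997 in RPR2.

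**Figure D4:**
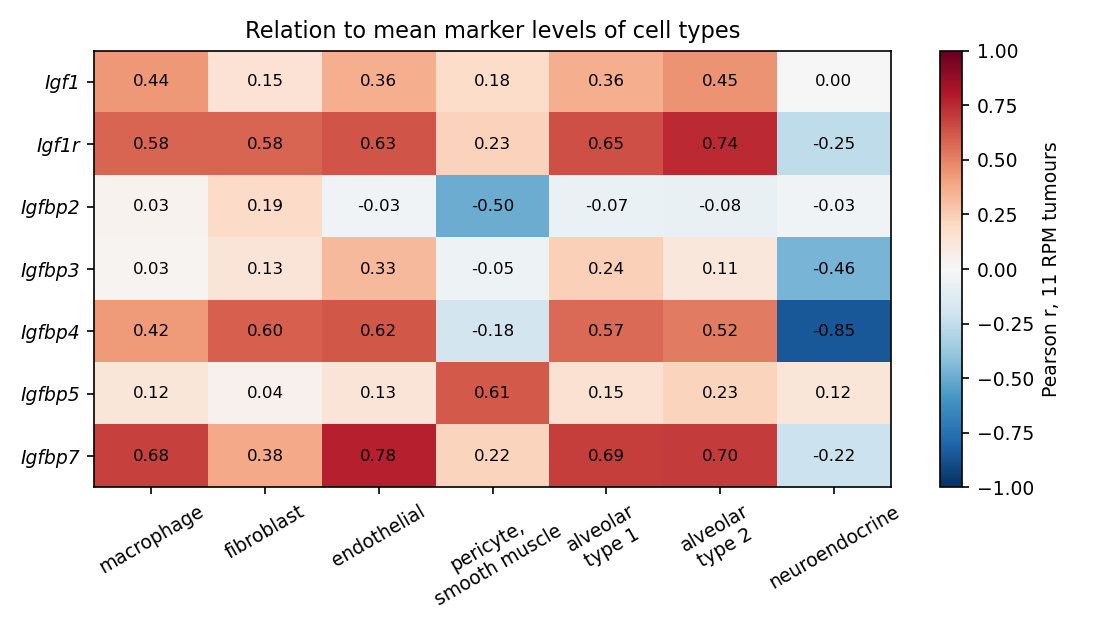
Pearson's r across 11 RPM tumours between each member (rows) and the mean marker level of each cell type (columns). With the values as deposited none of the 49 relations passed after adjustment, and the highest was that of Igfbp7 with endothelial markers (0.78).

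The genes whose levels ran most like a member across the 11 RPM tumours were taken from 9039 named genes with a mean of at least 5 FPKM in RPM, by Pearson's r of log2(FPKM + 1), as a description. For Igfbp2 they were Tmem41a (r = 0.93) and Ube2g2 (0.90), for Igfbp5 Ivd (0.95) and Cep250 (0.93), and for Igf1r Slc39a9 (0.97) and Aggf1 (0.97). For Igfbp7 they were Rras (0.90) and the matrix protein gene Sparc (0.89), and for Igfbp3 Zfc3h1 (0.88) and Snapc4 (0.85). For Igf1 they were Wsb2 (0.93) and Bcar3 (0.93), and both were highest in RPM replicate 9. For Igfbp4 they were Arap1 (0.96) and Dnajb4 (0.96), both highest in RPM replicate 5, where Dnajb4, a heat shock protein gene, stood at 110 FPKM against an RPM median of 8.61.

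Other genes of the pathway were set out in 7 lists, which were also drawn up with earlier results of these libraries known. Their counts are therefore a description with no test of a list, and a p of a single gene is adjusted over all 15719 genes. Among all genes 18.4% were called higher and 22.8% lower in RPM, with a median log2 difference of -0.06. Without RPR2 replicate 3 these were 16.4%, 27.4% and -0.20. Of 10 other ligand, receptor and binding protein genes 7 were tested, 0 rose (background 18.4%) and 3 fell in RPM (background 22.8%), and their median was -0.93. Igfals, which encodes the subunit that stabilises IGF complexes in blood, stood at 0.05 to 0.68 FPKM in RPM, against 7.48, 4.96 and 12.6 in RPR2. It is counted among the 3 but entered the fit only through its RPR2 libraries, so it had to differ, and no p is given for it. Insrr, a receptor related to the insulin receptor, stood at 0.03 to 2.29 in RPM, against 33.9, 78.6 and 0.07 in RPR2 (-3.56 ± 0.837, SE, limma adjusted p = 0.00345, and 4.23e-07 without RPR2 replicate 3). It entered the fit through 1 RPM and 2 RPR2 libraries, and RPR2 replicate 3 lay within the RPM range. Igf2 stood at 0.31 to 8.56 in RPM, against 36.2, 165 and 2.70 in RPR2 (-3.28 ± 0.805, SE, limma adjusted p = 0.00460, and 5.81e-05 without RPR2 replicate 3), and RPR2 replicate 3 again lay within the RPM range.

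The insulin receptor gene Insr stood at 4.74 to 10.4 FPKM in RPM, against 9.92, 9.27 and 9.16 in RPR2 (limma adjusted p = 0.190). Igf2r, which clears IGF-2, stood at 5.86 to 14.3 in RPM, against 19.4, 20.3 and 7.42 in RPR2 (limma adjusted p = 0.107). Igfbp6 stood at 0.05 to 2.73 in RPM, against 2.56, 7.43 and 1.65 in RPR2 (limma adjusted p = 0.0957). Without RPR2 replicate 3 Igf2r and Igfbp6 were called lower in RPM (limma adjusted p = 0.00631 and 0.0457), and 4 of 6 tested genes fell (background 27.4%), with a median of -1.16. Ins1 and Ins2 were listed at 0 in all 14 libraries.

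Of 13 genes of IGFBP proteases and their inhibitors 9 were tested, 2 rose (background 18.4%) and 2 fell (background 22.8%), with a median of 0.35. Both counts are near the background. Stc2, which encodes stanniocalcin 2, an inhibitor of PAPP-A, rose to 3.29 to 16.4 FPKM in RPM, against 2.47, 0.74 and 0.59 in RPR2 (1.92 ± 0.352, SE, limma adjusted p = 0.000542, and 0.00378 without RPR2 replicate 3). Mmp2 rose too (limma adjusted p = 0.0134, and 0.107 without RPR2 replicate 3). Klk1, counted among those that fell, stood at 0 to 0.44 FPKM in RPM, against 66.3, 262 and 1.32 in RPR2, and no p is given for it, since it too entered the fit only through its RPR2 libraries. Pappa, which encodes PAPP-A, was the other gene that fell (limma adjusted p = 0.0241, and 0.000409 without RPR2 replicate 3). It entered the fit through 1 RPM and 2 RPR2 libraries. Its FPKM was 0 to 1.95 in RPM (median 0.04), against 3.75, 2.93 and 0.01 in RPR2. The fall was thus seen only against RPR2 replicates 1 and 2, as replicate 3 had less Pappa than the median RPM tumour. Without RPR2 replicate 3, 1 rose (background 16.4%) and 1 fell (background 27.4%) of 8 tested.

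Of 38 receptor signalling genes 37 were tested, 4 rose (background 18.4%) and 11 fell (background 22.8%), with a median of -0.14. Without RPR2 replicate 3, 2 rose (background 16.4%) and 13 fell (background 27.4%), with a median of -0.56. Grb10, an adaptor that inhibits insulin and IGF receptors, rose to 21.2 to 120 FPKM in RPM, against 9.53, 6.28 and 6.59 in RPR2 (2.81 ± 0.424, SE, limma adjusted p = 0.000114). Its lowest RPM tumour exceeded its highest RPR2 tumour. Foxo1, a transcription factor that AKT keeps out of the nucleus, fell to 0.31 to 1.87 FPKM in RPM, against 6.85, 7.57 and 11.6 in RPR2 (-2.32 ± 0.253, SE, limma adjusted p = 6.26e-06). The docking protein gene Gab1 fell to 2.56 to 6.92 FPKM in RPM, against 15.8, 19.2 and 16.6 in RPR2 (limma adjusted p = 5.61e-05). These 3 calls held without RPR2 replicate 3 (limma adjusted p of 0.000709, 5.3e-05 and 0.000238).

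Among genes around the Igf2bp family, 4 of 16 genes of m6A methylation, a mark on messenger RNA that Igf2bp proteins are known to read, rose (background 18.4%) and 0 fell (background 22.8%), with a median of 0.14. They included Hnrnpc at 119.4 to 162 FPKM in RPM, against 88.2, 80.4 and 79.3 in RPR2 (limma adjusted p = 0.000215, and 0.000869 without RPR2 replicate 3). The demethylase gene Fto stood at 24.1 to 56.8 in RPM, against 13.2, 18.7 and 17.9 in RPR2 (limma adjusted p = 0.00137, and 0.00340 without RPR2 replicate 3), and Ythdf1 also rose (limma adjusted p = 0.0175, and 0.0785 without RPR2 replicate 3). Without that library 3 rose (background 16.4%) and 2 fell (background 27.4%), with a median of -0.05. Of 12 genes of proteins known to associate with Igf2bp complexes, 5 rose (background 18.4%) and 0 fell (background 22.8%), with a median of 0.63. With RPR2 replicate 3 left out, 3 rose (background 16.4%) and 0 fell (background 27.4%), with a median of 0.31. Ybx1 stood at 616 to 893 FPKM in RPM, against 379, 299 and 307 in RPR2 (limma adjusted p = 2.89e-05, and 0.000131 without RPR2 replicate 3). Elavl2, a neuronal RNA-binding protein gene, stood at 11.6 to 86.2 in RPM, against 12.9, 10.2 and 0 in RPR2 (limma adjusted p = 0.00279, and 0.0179 without RPR2 replicate 3), and Matr3 rose as well (limma adjusted p = 0.0177, and 0.137 without RPR2 replicate 3).

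Of 13 genes of Lin28 and of let-7 targets, a group to which the Igf2bp genes belong, 10 were tested, 0 rose (background 18.4%) and 4 fell (background 22.8%), with a median of 0.05. Of these, 0 rose (background 16.4%) and 5 fell (background 27.4%) without RPR2 replicate 3, with a median of -0.47. Arid3b fell to 1.05 to 2.96 FPKM in RPM, against 8.69, 12.2 and 4.48 in RPR2 (limma adjusted p = 0.000182), and Plagl2 and Nr6a1 fell too (limma adjusted p = 0.00180 and 0.0337). When RPR2 replicate 3 was left out, the limma adjusted p was 3.59e-05 for Arid3b, 0.00330 for Plagl2 and 0.00737 for Nr6a1. Lin28a and Lin28b, which block let-7, stood at 0.10 to 10.6 and 0.01 to 2.19 FPKM in RPM, against 4.87, 4.73 and 0.03 for Lin28a and 0.03, 0.01 and 0 for Lin28b in RPR2. Of 7 genes of the growth hormone axis, which drives Igf1 in liver, 6 were tested, 0 rose (background 18.4%) and 3 fell (background 22.8%), with a median of -0.79. These were Stat5a, Cish and Jak2 (limma adjusted p = 0.000142, 0.00110 and 0.00303), with 0.000953, 0.00268 and 0.000335 without RPR2 replicate 3, where 4 of 6 fell (background 27.4%) with a median of -1.06. Jak2 stood at 2.32 to 7.67 FPKM in RPM, against 16.8, 18.8 and 6.59 in RPR2.

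**Figure D5:**
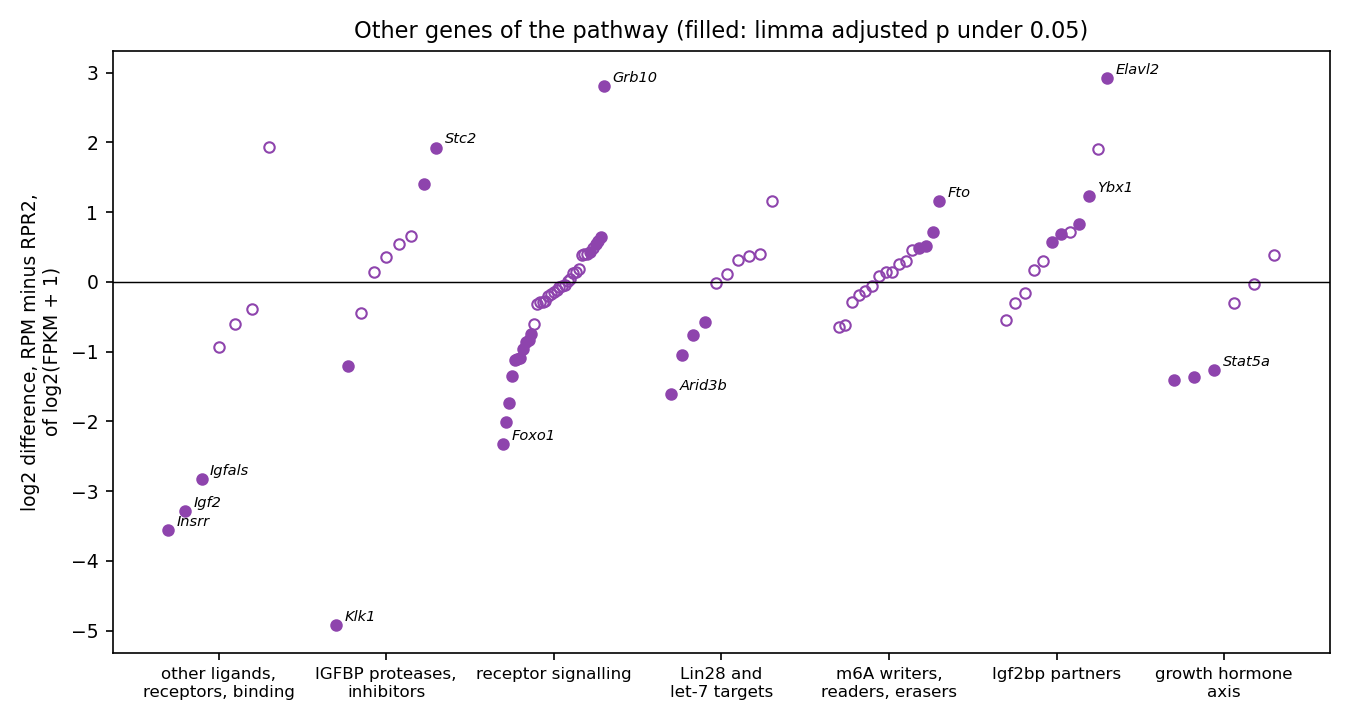
Difference between RPM and RPR2 in log2(FPKM + 1) for the tested genes of 7 pathway lists, sorted within each list. Filled points passed limma with Benjamini-Hochberg adjustment at 0.05, and positive values are higher in RPM. Grb10 (2.81) and Elavl2 (2.92) lie highest and Klk1 (-4.92) lowest, where Klk1 and Igfals entered the fit only through RPR2 libraries.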

How the data were processed

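RNA-seq libraries of 11 RPM and 3 RPR2 tumours were analysed. The authors deposited a table of FPKM values with 46517 gene rows and 1 further row that is not an Ensembl gene, which is 0 throughout and was left out. RSEM 1.2.12, Bowtie 1.0.1 and mm10 are named, per the submitters' processing notes. Which annotation and strand setting they used, and whether libraries were scaled to each other, is not given in the sources used here. Libraries were made with a stranded mRNA kit and read from a single end, per the labels' protocols and the series' design. RSEM shares reads among similar genes, so values of near-identical copies depend on that division.

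The table holds no counts. Depth was estimated from the steps of low values in short genes with 1 transcript, for an assumed read of 50 bases. At that depth 65.6% to 71.4% of these values lay within 0.1 of a whole read, too few to recover counts, so count models were not used.

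The tests took log2(FPKM + 1), so differences understate the change of low genes. Genes that reached 1 FPKM in 3 or more libraries of a comparison entered limma 3.58.1, run in R 4.3.3 (empirical Bayes with trend, two-sided, Benjamini-Hochberg adjustment over all genes tested, threshold 0.05). Relations were tested two-sided by 100000 permutations with Benjamini-Hochberg adjustment over their family. The fit and the relation test were checked on made-up data with known answers. Symbols were found for 46005 rows.

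The members and all gene lists were chosen with earlier results of these data known. The rule for naming took all members and, in each pathway list, up to 3 genes that passed with the smallest p, besides Insr, Igf2r and Igfbp6. Pappa, Ins1, Ins2, Lin28a, Lin28b and Pard6a were named after their values were seen. The pairs of members and the alternatives for Igfbp2 with Igfbp5 were chosen after seeing the data.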

Additional observations from a re-analysis of the deposited data

Results flagged for a closer look

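Among the 9 LSL/LSL tumours, 3 of the 10 members had a tumour far from the others, judged by the gap to its nearest neighbour as a share of the whole range of log2(FPKM + 1). Chance gives such a gap in about 5% of groups if the values are normally distributed, which was not checked. Igf1 in RPM replicate 9 stood at 46.0 FPKM, with the nearest tumour at 11.4 (ratio 0.594, against a critical value of 0.493). Igfbp4 in RPM replicate 5 stood at 257 FPKM, with the nearest tumour at 25.6 (ratio 0.716). Igf2bp3 in RPM replicate 1 stood at 0.46 FPKM, with the nearest tumour at 0.19 (ratio 0.540). Its LSL/LSL median was 0.01 FPKM, below the level of 3 reads on 2 kb (0.0756 to 0.0865 in RPM). The 5% therefore does not apply to Igf2bp3. The low Igfbp2 of RPM replicate 9, 22.4 FPKM with the nearest tumour at 72.0, fell just short (ratio 0.490).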

How the results depend on the processing

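RPM against RPR2 gave 2897 genes higher and 3586 lower. A filter at a mean FPKM of 5 left 2171 lower, and TPM scaling gave 1878 higher and 3588 lower and moved the median difference of all genes from -0.06 to -0.23. Leaving out each library in turn gave 2276 to 3033 higher and 2360 (without RPR2 replicate 2) to 4227 lower (without RPR2 replicate 3). LSL/LSL against LSL/+ gave 0 higher and 1 lower, with 4 higher at a pseudocount of 0.1, 30 lower with no filter, 0 lower after TPM scaling or quantile normalization, and 0 to 6 higher and 0 to 1 lower with each RPM library left out. TPM scaling moved the median of that comparison from 0.16 to 0.39. There the uncalled Igfbp3 turned to 0.068 after TPM scaling and the uncalled Igfbp7 to -0.18 after median-of-ratios scaling. With a library left out, Igfbp2 ran from -1.85 to 1.33, Igfbp5 from -0.26 to 1.44 and Igfbp7 from -0.17 to 0.22. Relations with marker levels numbered 0, and 6 after TPM scaling, none of which passed after median-of-ratios scaling. The r of Igfbp2 with Igfbp5 was -0.78 after TPM scaling and -0.88 with 1 tumour per title number, neither past the threshold, and -0.91 to -0.79 with a library left out. The causes were not tested. No paired analysis was possible because the labels give the models no shared replicate numbers. Depth limits what can be said of Igf2bp1 and Igf2bp3.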
